A study of Homo sapiens with 6 samples.

Results

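The genes described are those of MHC class I and its peptide loading: the heavy chains HLA-B, HLA-C, HLA-E and HLA-F, the light chain B2M, the transporter subunits TAP1 and TAP2, the loading factor TAPBP and the class I transactivator NLRC5. They were chosen by name and make up 9 of the 60675 Ensembl genes in the count table. The libraries come from MRC-5, a fibroblast line from human fetal lung. The quiescent group holds 3 libraries of MRC-5 cells arrested by contact inhibition for 9 days, and the young group holds 3 libraries of control MRC-5 cells. Both groups are at population doubling 32, and no drug or genetic change is given for either.

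MHC class I molecules display peptides from inside the cell to cytotoxic T cells. A heavy chain pairs with beta-2-microglobulin in the endoplasmic reticulum, where TAP1 and TAP2 form the pump that brings in peptides from the cytosol and tapasin, the product of TAPBP, holds the empty molecule at the pump. Nearly all nucleated cells carry class I, fibroblasts included, and interferons raise it through NLRC5 and interferon regulatory factors.

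The labels give the young samples as reanalysed from an earlier series, so growth state and library set cannot be told apart. Separate cultures are not stated for the replicates, and p-values therefore reflect the spread among these libraries, which may be technical. Total counts ranged from 18661639 to 22546237 in quiescent libraries and from 26860981 to 29433764 in young libraries. The proliferation gene MKI67 averaged 5.72 ± 0.522 CPM in quiescent libraries and 59.4 ± 8.38 CPM in young libraries (SD, n = 3 each; CPM is the read count scaled to library size and TMM factor). All 10 fibroblast markers were tested in edgeR, and 3 were higher, 6 lower and 1 not called. Of all 15568 tested genes, 34.8% were higher and 36.3% lower. The collagen genes COL1A1 (log2 fold change -1.18) and COL1A2 (-1.09) and the surface marker THY1 (-1.91) were lower in quiescent libraries, LUM was higher (1.23), and VIM, an intermediate filament gene, was not called (0.01). Of 10 leukocyte markers, only CD14 passed the filter on low counts, and it was higher, at 2.58 ± 0.426 CPM in quiescent and 1.03 ± 0.110 CPM in young libraries (log2 fold change 1.31, edgeR, adjusted p = 2.08e-06). The summed level of the list was 2.62 to 3.58 CPM in quiescent and 1.06 to 1.77 CPM in young libraries. CD3E and MS4A1, which define T and B cells, had no read, and PTPRC had 2 reads in each group. Endothelial markers summed to 94.7 to 96.9 CPM in quiescent and 75.8 to 86.6 CPM in young libraries, nearly all of it TEK. All 3 tested endothelial markers were higher: TEK (log2 fold change 0.18), VWF, at 3.27 CPM in quiescent and 0.803 CPM in young libraries (2.03), and KDR, at 3.10 CPM in quiescent and 0.394 CPM in young libraries (2.94). PECAM1 and CDH5 together had 1 read in quiescent and 5 reads in young libraries. Epithelial markers summed to 27.8 to 28.8 CPM in quiescent and 54.8 to 56.7 CPM in young libraries. All 3 tested epithelial markers were lower: KRT8 (log2 fold change -0.36), KRT18 (-0.93) and KRT19, at 1.04 CPM in quiescent and 12.3 CPM in young libraries (-3.56). EPCAM had 8 reads in quiescent and 44 reads in young libraries, and SFTPC had no read. The part of these markers in the results was not tested.

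The promoters of HLA-B, HLA-C and B2M, whose levels are compared most closely, are shown first. Their part in the levels was not tested. RefSeq promoters (GRCh38.p14) were matched for 7 of the 9 genes. The windows run from 250 to 41 bases before the start, and capitals mark the motifs searched on both strands. HLA-B lies on the minus strand at chr6:31357220-31357429, HLA-C on the minus strand at chr6:31272133-31272342 and B2M on the plus strand at chr15:44711267-44711476.
HLA-B: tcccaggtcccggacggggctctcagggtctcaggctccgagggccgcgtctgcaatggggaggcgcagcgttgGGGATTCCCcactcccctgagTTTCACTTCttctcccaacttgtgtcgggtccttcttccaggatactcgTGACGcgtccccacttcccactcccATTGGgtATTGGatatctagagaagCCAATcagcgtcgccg
HLA-C: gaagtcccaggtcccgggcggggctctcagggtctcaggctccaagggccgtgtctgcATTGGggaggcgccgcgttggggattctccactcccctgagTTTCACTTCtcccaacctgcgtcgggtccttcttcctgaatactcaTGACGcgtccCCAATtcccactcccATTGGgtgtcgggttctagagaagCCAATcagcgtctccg
B2M: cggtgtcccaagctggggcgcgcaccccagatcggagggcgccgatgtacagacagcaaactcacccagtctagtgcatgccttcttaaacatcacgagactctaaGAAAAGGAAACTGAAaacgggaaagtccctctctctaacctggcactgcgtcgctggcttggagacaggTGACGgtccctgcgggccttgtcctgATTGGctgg

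The motifs were GGGATTCCC, a kB-type site held by 0.362% of 35116 promoters; GAAANNGAA or GAANNGAAA, an interferon regulatory factor pattern held by 12.4%; TGACG, a cyclic AMP response half-site held by 21.2%; and CCAAT, held by 32.0%. Neighbouring matches can overlap, as the pair of regulatory factor matches in B2M does. The HLA-B and HLA-C windows were identical at 190 of 214 alignment columns (88.8%). GGGATTCCC was found in HLA-B, 176 bases before the start, and in none of the other 6 matched genes. Only these exact letters were searched, so other kB-type sites in B2M or any other gene were not looked for. Between the same neighbouring letters, the HLA-C window reads gggattctc. The interferon regulatory factor pattern was found in all 3 windows, 155 bases before the start in HLA-B and 151 bases before it in HLA-C. A match is a description of letters in the reference genome and not evidence of binding. The sequence of these promoters in MRC-5 cells was not examined.

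HLA-B and B2M were higher in quiescent than in young libraries, HLA-E was lower, and HLA-C, TAP1, TAPBP and NLRC5 did not pass the test. HLA-B, at 1.35-fold, had the largest change of the 7 tested genes, and B2M followed at 1.22-fold. These are modest changes here: 71.1% of the 15568 tested genes were called in either direction, 34.8% higher and 36.3% lower, against 3 of 7 class I genes, 2 higher and 1 lower. The absolute log2 fold changes of HLA-B and B2M were at the 53.9 and 39.1 percentiles of all tested genes. A gene was called at an adjusted p under 0.05 in edgeR's quasi-likelihood test with Benjamini-Hochberg adjustment over all tested genes, and every adjusted p below is from that test. The median log2 fold change was 0.03 over the 7 genes and 0.00 over all tested genes.

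**Figure D1:**
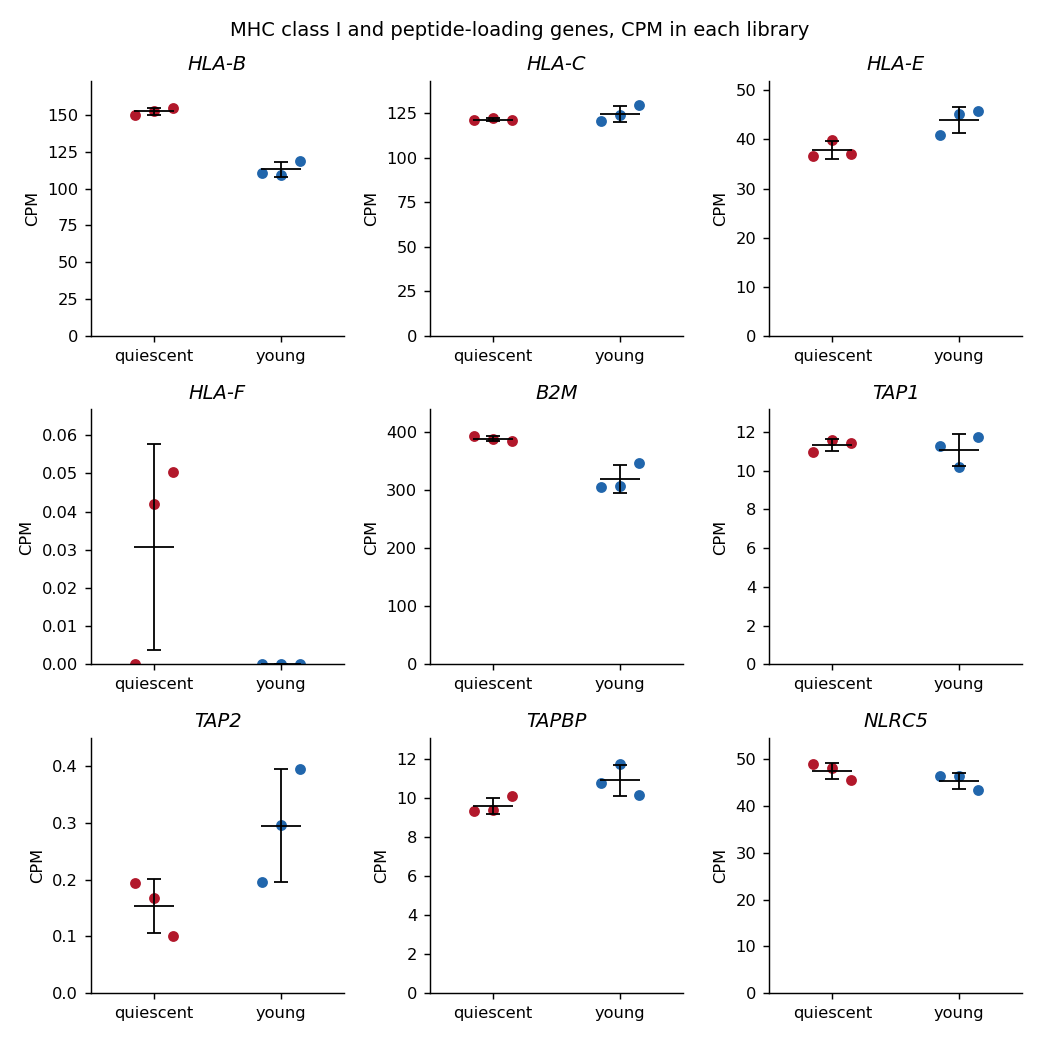
TMM-scaled CPM of the 9 genes in each library, quiescent left and young right; points are libraries and bars are the mean and SD of 3. HLA-B and B2M are higher in every quiescent library than in any young one, and HLA-E is lower in every quiescent library.

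Among the heavy chains, HLA-B (ENSG00000234745, chr6:31269491-31357188 on GRCh38, minus strand) presents peptides to CD8 T cells. It had 149.7, 152.8 and 154.7 CPM in quiescent libraries, against 110.8, 109.5 and 118.9 CPM in young libraries. The groups did not overlap, and the log2 fold change was 0.43 ± 0.04 (SE, adjusted p = 1.04e-09). Its annotated exons share 35 bases with HLA-C and 542 bases with an opposite-strand pseudogene, AL671883.2, which had 2 reads in all.

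HLA-C (ENSG00000204525, chr6:31268749-31272130, minus strand) presents peptides to T cells and is a main ligand of inhibitory natural killer cell receptors. It had 121.0, 122.1 and 121.0 CPM in quiescent libraries, against 120.5, 124.1 and 129.5 CPM in young libraries. The groups overlapped, and the log2 fold change was -0.04 ± 0.04 (SE, adjusted p = 0.393). HLA-E (ENSG00000204592, chr6:30489467-30494205, plus strand) presents leader peptides of other class I chains to natural killer cells. It had 36.6, 40.0 and 36.9 CPM in quiescent libraries, against 40.8, 45.3 and 45.7 CPM in young libraries. Every quiescent library was below every young library, and the log2 fold change was -0.21 ± 0.05 (SE, adjusted p = 0.00104).

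HLA-F (ENSG00000204642, chr6:29722775-29738528, plus strand), a class I chain of restricted expression, had 2 reads over the quiescent libraries and 0 reads over the young libraries. Both are under the floor of 3 reads, which corresponds to 0.0466 CPM over the quiescent and 0.0373 CPM over the young libraries, so no fold is given. Of the 50-base stretches in its main transcript, 41.7% also occur in transcripts of other genes, against 21.0% for HLA-B, 6.71% for HLA-C, 5.76% for HLA-E and 0 for B2M. How reads with several matches were counted is not given in the sources used here, and the part of shared sequence in these levels was not tested.

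B2M (ENSG00000166710, chr15:44711487-44718877, plus strand), the light chain shared by the heavy chains, had 394, 388 and 384 CPM in quiescent libraries, against 305, 307 and 346 CPM in young libraries. All 3 quiescent libraries were above the highest young library, and the young libraries were the more spread, at 319 ± 23.4 CPM (SD, n = 3). The log2 fold change was 0.28 ± 0.04 (SE, adjusted p = 4.09e-06).

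In the loading complex, TAP1 (ENSG00000168394, chr6:32845209-32853978, minus strand) had 10.9, 11.6 and 11.4 CPM in quiescent libraries, against 11.3, 10.2 and 11.7 CPM in young libraries. The groups overlapped (log2 fold change 0.03 ± 0.08, SE, adjusted p = 0.719). TAP2 (ENSG00000204267, chr6:32821833-32838780, minus strand), the partner of TAP1 in the pump, had only 4, 4 and 2 reads in quiescent libraries, against 5, 8 and 11 reads in young libraries. The ratio of its summed reads per effective library size was 0.520, with an exact binomial 95% interval of 0.222 to 1.13 that covers counting error only. TAP2 shares 32.3% of its exon bases with a readthrough gene on the same strand, AL669918.1, which had no read, and the part of this overlap was not tested.

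TAPBP (ENSG00000231925, chr6:33299694-33314387, minus strand) had 9.35, 9.39 and 10.1 CPM in quiescent libraries, against 10.8, 11.8 and 10.2 CPM in young libraries. The groups did not overlap, though narrowly, and the log2 fold change of -0.18 ± 0.08 missed the threshold (SE, adjusted p = 0.0550). Without young library 1.2, numbered as in its column name, the adjusted p was 0.0265 at a log2 fold change of -0.22. NLRC5 (ENSG00000140853, chr16:56989485-57083531, plus strand), which drives transcription of class I genes, had 48.9, 48.2 and 45.6 CPM in quiescent libraries, against 46.5, 46.4 and 43.5 CPM in young libraries. The groups overlapped (log2 fold change 0.07 ± 0.05, SE, adjusted p = 0.215). In all, 4 of the 7 tested genes had groups that did not overlap, against 73.5% of all tested genes.

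The calls depend on how libraries are scaled. When counts were scaled by library size only, all tested genes had a median of 0.18 on the log2 scale, and 5 of the 7 genes were higher and 0 lower, against 48.6% of all tested genes higher and 25.0% lower. HLA-B then had a log2 fold change of 0.61, B2M 0.46, NLRC5 0.25, TAP1 0.21 and HLA-C 0.14, while HLA-E, at -0.04, no longer passed (adjusted p = 0.566). HLA-B and B2M were higher under both scalings, by more than the median of all genes in each.

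**Figure D2:**
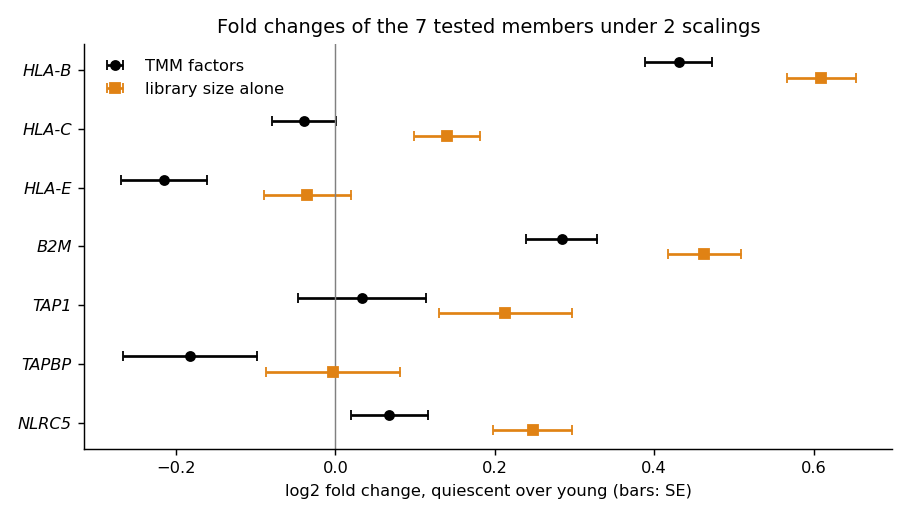
Log2 fold change of quiescent over young with its SE for the 7 tested genes, with TMM factors (circles) and with library size alone (squares). The whole set shifts to the right by about the median shift of all genes, 0.18, and HLA-B and B2M stay the highest.

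Ratios of reads within a library do not depend on scaling. HLA-B had 1.24, 1.25 and 1.28 reads per HLA-C read in quiescent libraries, against 0.919, 0.882 and 0.918 in young libraries. HLA-B was thus the more counted of the pair in every quiescent library and the less counted in every young one (log2 difference 0.47). Against B2M, HLA-B had a ratio of 0.380, 0.394 and 0.403 in quiescent libraries, against 0.364, 0.357 and 0.343 in young libraries. HLA-C over B2M was 0.307, 0.315 and 0.315 in quiescent libraries, against 0.396, 0.404 and 0.374 in young libraries. HLA-C was lower relative to its light chain in every quiescent library, and HLA-B slightly higher. On the log2 scale, quiescent minus young, the difference was 0.15 for HLA-B over B2M, -0.33 for HLA-C, -0.50 for HLA-E, -0.25 for TAP1, -0.47 for TAPBP and -0.22 for NLRC5. All of these ratios but HLA-B over HLA-C are taken over B2M, which was itself higher in quiescent libraries. In CPM, HLA-C, TAP1 and NLRC5 overlapped between groups. No share was computed over other pairs of genes, and in CPM 73.5% of all tested genes did not overlap. None of these ratios overlapped between groups. Each had a two-sided exact permutation p = 0.1, the smallest that 3 against 3 libraries can give, and 0.12 after Benjamini-Hochberg adjustment over 12 ratios, so no ratio can pass 0.05 in this design. TAP1 over TAP2 overlapped between groups (exact permutation p = 0.2) and rests on the few TAP2 reads.

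**Figure D3:**
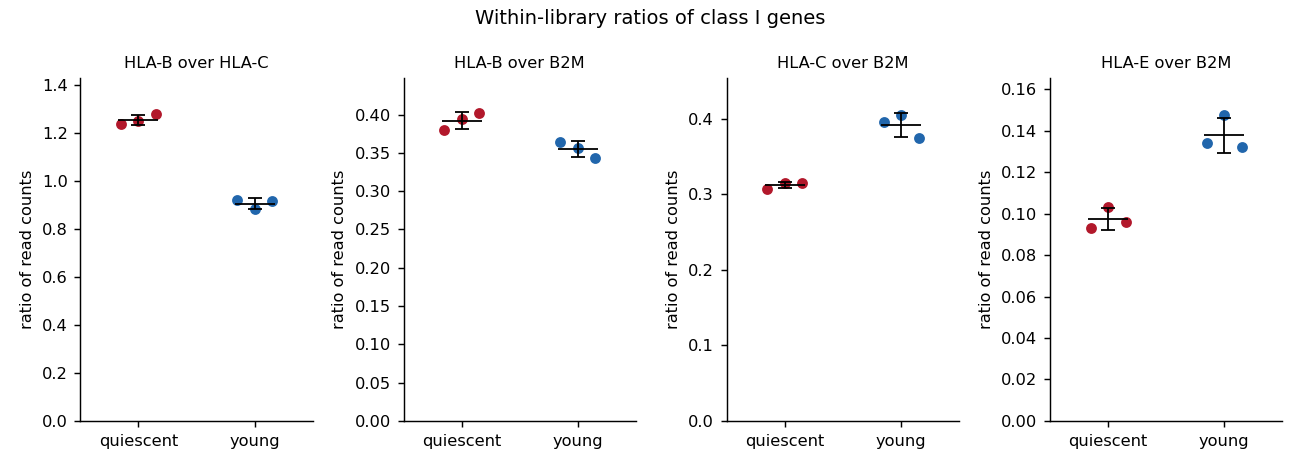
Ratio of read counts within each library for 4 pairs of class I genes, quiescent left and young right; points are libraries and bars are the mean and SD of 3. The HLA-B over HLA-C ratio lies above 1 in all quiescent libraries and below 1 in all young libraries.

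Levels of different genes were compared per length, as RPKM recomputed from the counts with the union of exons and each library's own total. HLA-B averaged 53.1 ± 0.754 RPKM in quiescent and 34.8 ± 1.93 RPKM in young libraries, and HLA-C averaged 51.5 ± 0.127 RPKM in quiescent and 46.7 ± 1.92 RPKM in young libraries (SD, n = 3 each). HLA-E was lower, at 13.5 ± 0.601 RPKM in quiescent and 13.9 ± 0.795 RPKM in young libraries. On these lengths, 3051 bases for HLA-B and 2507 for HLA-C, the genes were close in quiescent cells, with HLA-C ahead in young cells. The closeness depends on the length used, as the shares below show. These RPKM values carry no TMM factor, so their fold changes follow library size alone. B2M averaged 68.0 ± 1.09 RPKM in quiescent and 49.3 ± 4.02 RPKM in young libraries over 6079 exon bases, a union far longer than its main transcript of 1705 bases, so its RPKM depends strongly on the length used. NLRC5 was at 4.08 RPKM in quiescent and 3.44 RPKM in young libraries, and TAP1 at 2.50 RPKM in quiescent and 2.16 RPKM in young libraries. TAPBP was at 2.02 RPKM in both groups.

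As a share of the summed heavy-chain RPKM, HLA-B made up 45.0 ± 0.479% in quiescent and 36.5 ± 0.715% in young libraries. HLA-C made up 43.6 ± 0.387% in quiescent and 49.0 ± 0.236% in young libraries, and HLA-E 11.4 ± 0.458% in quiescent and 14.5 ± 0.569% in young libraries (SD, n = 3 each). With main transcript lengths, a choice added after seeing the data, HLA-B made up 51.5% and HLA-C 40.9% in quiescent libraries, against 42.9% for HLA-B and 47.1% for HLA-C in young libraries. With either length the groups did not overlap for any of these 3 genes (exact permutation p = 0.1 each, the smallest possible). The shares of a library add up to a fixed whole, so these are not 3 separate results: a share that rises lowers the others. The RPKM of HLA-C itself was not lower in quiescent libraries (51.5 against 46.7 in young), and its CPM overlapped between groups. Non-overlap of shares was not computed for other sets of genes, and in CPM 73.5% of all tested genes did not overlap. The summed CPM of the heavy chains was 312 ± 3.90 in quiescent and 282 ± 11.3 in young libraries, also without overlap (exact permutation p = 0.1, n = 3 each).

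**Figure D4:**
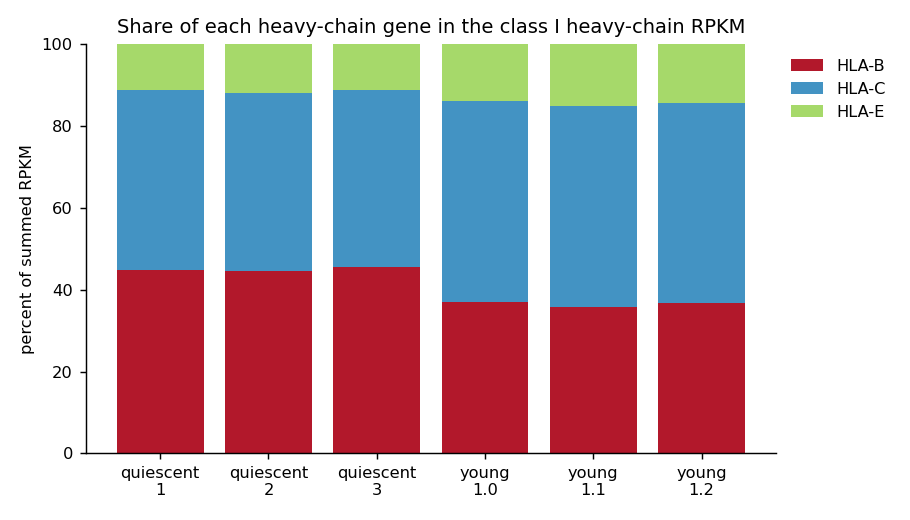
Percent of summed heavy-chain RPKM from HLA-B, HLA-C and HLA-E in each library, quiescent left and young right; HLA-F is too low to see. HLA-B takes about 45.0% in quiescent and 36.5% in young libraries.

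The partners that fold and trim within the endoplasmic reticulum were all called, 4 of 10 higher and 6 lower, with a median log2 fold change of -0.20. Of all tested genes, 71.1% were called with TMM factors, 34.8% higher and 36.3% lower. With library size alone 48.6% were higher and 25.0% lower. The list counts here and below stand beside these shares, and no list was tested as a set. CALR, the chaperone calreticulin of the loading complex, averaged 796 ± 15.9 CPM in quiescent and 2768 ± 104 CPM in young libraries (log2 fold change -1.80, adjusted p = 1.74e-22). PDIA3, the oxidoreductase bound to tapasin, averaged 363 ± 4.08 CPM in quiescent and 661 ± 33.3 CPM in young libraries (-0.86, adjusted p = 7.13e-16). These chaperones serve many glycoproteins besides class I. CANX, which binds new heavy chains, had a log2 fold change of -0.14 (adjusted p = 0.00207), but 0.04 with library size alone (adjusted p = 0.386). The peptide-trimming enzymes moved apart: ERAP1 rose by 0.17 (adjusted p = 0.00193) and ERAP2 fell by 0.36 (both log2; adjusted p = 0.0322 for ERAP2), and the ERAP2 call was lost with library size alone (adjusted p = 0.278). Under that scaling 4 of these 10 genes were higher and 3 lower. TAPBPL, a peptide editor related to tapasin, rose by 0.34 (adjusted p = 1.21e-04).

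Of the immunoproteasome and PA28 genes, which shape the peptides supplied to TAP, 0 of 6 were higher and 4 were lower (median -0.35). PSMB9 averaged 2.25 ± 0.353 CPM in quiescent and 3.27 ± 0.404 CPM in young libraries (-0.53, adjusted p = 0.00459), and had an adjusted p of 0.0504 with library size alone, under which 1 of the 6 genes was higher and 3 lower. PSMB8 (-0.15, adjusted p = 0.137) and PSMB10 (0.10, adjusted p = 0.301) did not pass. The PA28 subunits PSME1 and PSME2 fell by 0.33 and 0.37 on the log2 scale. The constitutive catalytic subunits fell in all 3 cases, among them PSMB6 by 0.72 and PSMB5 by 0.54. Within libraries, PSMB8 over PSMB5 and PSMB10 over PSMB7 were higher in quiescent cells by 0.38 and 0.47 on the log2 scale (exact permutation p = 0.1 each), and PSMB9 over PSMB6 overlapped between groups (exact permutation p = 0.3).

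Of 14 transcription factors that act on class I promoters, 8 were higher and 3 lower (median 0.14), where 71.1% of all tested genes were called. IRF1, an activator of class I genes, rose by 0.35 (adjusted p = 1.45e-06), while RFX5 and RFXANK, subunits of the RFX complex on the class I promoter, fell by 0.27 and 0.50 on the log2 scale. With library size alone 11 of the 14 were higher and 1 lower, and RFX5 was not called (adjusted p = 0.106). Of 11 tested interferon receptor and signalling genes, 8 were higher and 1 lower (median 0.38), and 10 and 0 with library size alone. STAT2 averaged 541 ± 10.7 CPM in quiescent and 217 ± 3.19 CPM in young libraries (1.32, adjusted p = 2.21e-20), IRF9 rose by 0.91 and SOCS3, a feedback inhibitor, fell by 0.23 with TMM factors but was not called with library size alone (adjusted p = 0.406). IFNG had no read, and IFNB1 had 1 read in each group.

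Interferon-stimulated genes went both ways, with 9 of 21 tested higher and 7 lower (median 0.12), and 12 higher and 6 lower with library size alone. HERC5 (3.54) and IFIT2 (1.52) rose, and GBP1, a guanylate-binding protein induced by interferon gamma, averaged 23.5 ± 1.33 CPM in quiescent and 62.3 ± 1.91 CPM in young libraries (-1.41). Class I-like and stress ligands were mostly lower, 1 of 11 tested higher and 7 lower (median -0.45), and 3 higher and 5 lower with library size alone. ULBP3, a ligand of the natural killer receptor NKG2D, fell by 1.84, PROCR fell by 1.72, and FCGRT, the heavy chain of the neonatal Fc receptor and another partner of B2M, rose by 0.38. Of 6 turnover ligases and related genes, 1 was higher and 3 lower, and 3 higher and 2 lower with library size alone. MARCH4, a ubiquitin ligase that can remove class I from the surface, averaged 9.01 ± 0.362 CPM in quiescent and 54.3 ± 4.13 CPM in young libraries (-2.59, adjusted p = 3.84e-21), and MARCH9 rose by 0.46. Of 11 class II genes, 3 were tested and 2 were lower, CD74 by 1.66 and HLA-DPB1 by 1.09, both at under 3 CPM. Of 9 class I pseudogenes, only HLA-J (-0.11, adjusted p = 0.736) and HLA-L (-0.10, adjusted p = 0.825) had enough reads to be tested, and neither passed.

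**Figure D5:**
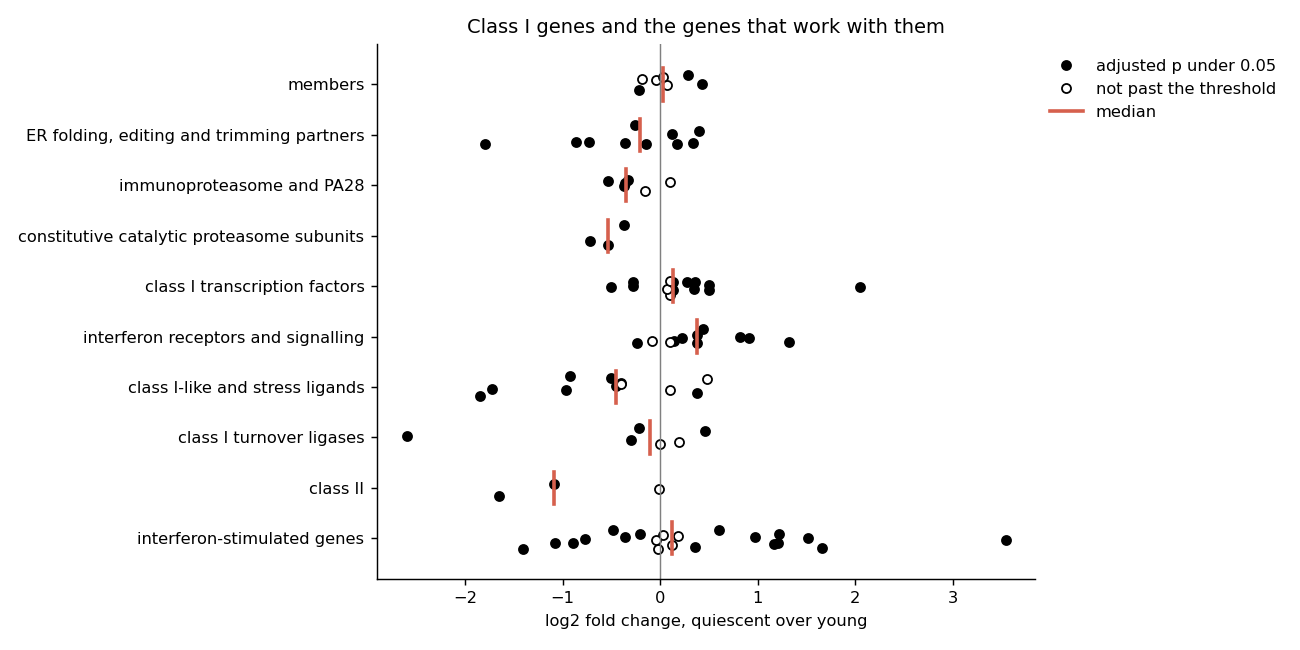
Log2 fold change of quiescent over young for each tested gene, by list; filled circles passed an adjusted p of 0.05, open circles did not, and red bars are medians. The class I genes lie between -0.21 (HLA-E) and 0.43 (HLA-B), while CALR, MARCH4 and HERC5 lie far out in their lists.

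By distance of centred log2 CPM over the 6 libraries, the tested genes most like HLA-B were CDC37L1, SNHG5 and MEAF6. Those most like HLA-C were RACK1, DHRS7 and RAB1A, and those most like B2M were FHL2, NIT2 and TRAPPC13. With 6 libraries in 2 groups the measure mostly follows the group difference, and each of the 3 nearest to HLA-B had a log2 fold change between 0.42 and 0.44.

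Of the 9 genes, 7 lie in the MHC region of chromosome 6. Of its 179 protein-coding genes, 42.5% had no read in any library, against 16.9% of 19514 protein-coding genes elsewhere. Among those tested, 21 of 77 were higher and 25 lower (59.7% called), against 4470 higher and 5044 lower of 12869 elsewhere (73.9% called), a difference that was not tested. The median log2 fold change was -0.06 in the region and -0.02 elsewhere.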

How the data were processed

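RNA-seq libraries of MRC-5 fibroblasts (3 quiescent, 3 young) were prepared with Illumina's TruSeq RNA kit v2, which does not mark strand, per the labels' protocols. The submitters' processing notes list GRCh38, featureCounts 1.4.6-p4, STAR 2.4.1d and bcl2fastq 1.8.4. The authors deposited raw read counts per gene, not normalized, and RPKM values. Set against the counts, the read total behind the deposited RPKM changed from row to row, repeating every 14 rows in quiescent and 15 rows in young columns. It matched the library's own total within 1% for 6.49% to 6.58% of 7981 genes in quiescent and 18.7% to 18.9% in young columns, so RPKM was recomputed from the counts.

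Quiescent columns carry their sample titles. The young columns are the other 3 of the tables every sample names, and which young sample each is cannot be read. The counts went into edgeR 4.0.16 under R 4.3.3 (filterByExpr, TMM factors, robust quasi-likelihood fit, group only) with Benjamini-Hochberg adjustment over 15568 genes. The fits were also run on simulated data in which few genes changed, unlike here. That run therefore does not bear on the choice of scaling. The biological coefficient of variation was 3.84%. Single ratios and shares were tested by exact permutation. Alternatives used limma 3.58.1 and DESeq2 1.42.0, other scalings and filters, and each library left out. Gene names and coordinates are from GENCODE 29, and 57055 of the gene IDs matched. The genes and lists were chosen with earlier results of these data known. Named genes are the 9, 14 companion genes set by name and, per other list, the 2 largest called changes at a mean CPM of at least 1 and the largest in the rarer direction; 1 gene under this rule is not reported here.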

Additional observations from a re-analysis of the deposited data

How the results depend on the processing

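No paired analysis was possible because the young columns carry no replicate numbers of the labels. Of 286 alternative values, 258 kept their direction and their side of the threshold, or stayed within 1.5 times for a count. Ratios and shares cannot give an exact permutation p under 0.1, so for them only the direction could change. The tally therefore overstates how many values were put to a test. With library size alone, 5 class I genes were called instead of 3, HLA-C turned to 0.14, and all called genes split into 7568 higher and 3889 lower. Upper-quartile factors gave 6274 higher and 4912 lower, HLA-C at 0.032, and NLRC5 called at 0.14 (edgeR, adjusted p = 0.0132). On log2(RPKM + 0.1) and log2(RPKM + 1) of the deposited RPKM, limma called 7367 and 7316 genes against 11064, and 42 and 43 companion genes against 67. It called 0 class I genes, with 1 at an unadjusted p under 0.05 in each; DESeq2's Wald test and limma-voom on counts called 3 each. On the deposited RPKM, in the same order, B2M was at -0.0080 and -0.0079, TAP1 at -0.076 and -0.048, and TAPBP at 0.18 and 0.11. HLA-B was at 0.46 and 0.45 on the deposited RPKM (limma, adjusted p = 0.0576 and 0.0574). Ratios of deposited RPKM turned for TAPBP over B2M (0.20), NLRC5 over B2M (0.29) and HLA-E over HLA-C (0.084). TAP1 over B2M shrank from -0.25 to -0.073 (exact permutation p = 0.9), and HLA-E over B2M from -0.50 to -0.21 (exact permutation p = 0.7). HLA-B over B2M grew from 0.15 to 0.46, and HLA-B over HLA-C from 0.47 to 0.75. The deposited RPKM divides neighbouring rows by different totals, so ratios of genes in it do not cancel the total. Leaving out 1 library gave TAP1 between -0.025 (without young library 1.1) and 0.090, and HLA-B between 0.41 and 0.48. Heavy-chain shares from deposited RPKM or main transcript lengths were added after seeing the data and kept their direction, with HLA-C at -9.98 percentage points on deposited RPKM against -5.40. TAP2 and HLA-F had too few reads for a test, and the cause was not tested.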
